A study of Mus musculus with 8 samples.

Results

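Blood stem and progenitor cells of the mouse labelled as carrying or lacking an intact Zfx gene were compared. Zfx is an X-linked zinc finger transcription factor. The cells, named HSC in the labels, had been sorted from marrow as Lin- Sca-1+ c-Kit+, a gate that takes in stem cells together with multipotent progenitors. Of the 8 arrays of the series, 4 are of these cells and were chosen by their titles, 2 from HSC_Zfx-cko and 2 from HSC_Zfx-flox. The remaining 4 are embryonic stem cell arrays. Zfx-cko cells came from Zfx flox/y males that carried Mx1-Cre, and Zfx-flox cells from Zfx flox/y littermates without Cre, so both groups carried the loxP-flanked allele and Cre was present in the Zfx-cko arrays alone. Mx1-Cre is driven by an interferon-inducible promoter that acts in many tissues besides blood. Both groups had received the interferon inducer pI·C. Marrow was taken 4 days after the final injection and pooled from 4 to 6 mice of unstated age. From each RNA sample 100 ng went through 2 rounds of linear amplification before hybridization to Affymetrix Mouse Genome 430 2.0 arrays. All 45037 probe sets that are not control probes were considered, and 12626 genes were bright enough to test.

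Zfx belongs to a small family of zinc finger activators that bind near the start sites of many genes, and it is known for its part in the self-renewal of embryonic and blood stem cells. In marrow, Lin- Sca-1+ c-Kit+ cells range from dormant stem cells, through progenitors primed for lymphoid fates, to cells that already transcribe megakaryocyte or erythroid genes. The transcription factors Runx1, Meis1, Mecom and Gata2 maintain the stem cell state, Flt3 marks progenitors with lymphoid potential, and Gata1 with Klf1 drives red cell differentiation.

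Each value below is a deposited probe set signal, a linear intensity scaled alike on every array, and is given for both arrays of a group in the order of their replicate numbers. Changes are differences of log2(signal + 14.21), Zfx-cko minus Zfx-flox, with 14.21 the 25th percentile of all signals. This offset understates changes of dim genes. A probe set was tested when its mean over the 4 HSC arrays reached the 40th percentile, a signal of 25.5. For 136 of the higher and 52 of the lower genes one group alone lay under that level, so they were tested only through the group where they were high. Among the genes described below these include Asb4, Ccr9, Chl1, Dusp5, Entpd1, Fgf13, Gp9, Hspa1a, Il21r, Itgb3, Plk2 and Zfp711, each of which was also called when no filter was used. A gene was called higher or lower when the p-value of limma, adjusted by Benjamini and Hochberg over the 12626 genes, was below 0.05. Not called does not mean unchanged: of 52 genes described below as not called on their brightest probe set, 29 were called under some alternative, 18 of them with the HSC arrays fitted alone, and 16 had another probe set past the threshold. Samples were hybridized in duplicate, and a p-value here reflects nothing beyond how far duplicate hybridizations differ, perhaps only technically. That spread was estimated over the HSC and ESC groups together, so the p-values also depend on the ESC arrays. In a bulk population, fewer cells of a type and less RNA per cell cannot be told apart.

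The arrays of a group resembled each other more than those of the other group. The correlation of the linear signals, which the brightest probe sets weigh on most, was 0.998 within Zfx-flox, 0.998 within Zfx-cko and 0.963 to 0.965 between them. Median signals ranged from 38.4 to 47.1, and the offset was exceeded by 69.4% to 73.5% of probe sets. Transcripts were read mainly near their 3′ ends: the log2 ratio of the 5′ to the 3′ Gapdh control probe sets was −4.18 and −4.25 in Zfx-flox against −4.68 and −4.39 in Zfx-cko. This ratio was lower in Zfx-cko, while that of beta-actin overlapped between the groups, at −3.46 and −3.30 against −3.60 and −3.44. The part of these ratios in the results was not tested. The sort marker Kit was bright on all arrays, at 1122 and 1174 in Zfx-flox against 1462 and 1390 in Zfx-cko, a difference called in the fit of all arrays (adjusted p = 0.019) but not without any one of the HSC arrays (adjusted p = 0.0523 to 0.11). The defining B cell gene Cd79a lay at 27.3 and 12.2 in Zfx-flox against 29.6 and 26.2 in Zfx-cko. The T cell gene Cd3e, the myeloid gene Itgam and Pecam1, listed with the endothelial markers, gave no signal above 14.3 on any of the 4 arrays. This does not show that such cells were absent. Other markers of such cells were brighter: S100a8 of granulocytes lay at 33.3 and 58.5 in Zfx-flox against 45.1 and 37.1 in Zfx-cko, and Adgre1 of macrophages at 92.8 and 78.3 in Zfx-flox against 84.9 and 68 in Zfx-cko, overlapping between groups. Nkg7, a granule gene of NK cells and some myeloid cells, lay at 1130 and 1122 in Zfx-flox against 2775 and 2993 in Zfx-cko, called higher in the fit of all arrays (adjusted p = 0.0299) but not without any one of the HSC arrays (adjusted p = 0.101 to 0.126).

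Zfx-cko cells differed from Zfx-flox cells in 5346 genes, 42.3% of those tested. Of these, 2903 genes (23.0%) were higher and 2443 (19.3%) lower, and the median change over all genes was 0.03. A change of at least 2-fold on the offset scale was fitted for 885 of the higher and 437 of the lower genes, and of at least 4-fold for 75 and 84. In all 5346 genes the arrays of one group lay wholly above those of the other. A call with 2 arrays a group all but requires this, so it adds no support to the calls. Genes not called, such as B2m, separated too, and the share over all tested genes is not given here. With so large a share of genes called, the gene groups described next are read against 23.0% higher and 19.3% lower. Some genes stand in more than one group.

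**Figure D1:**
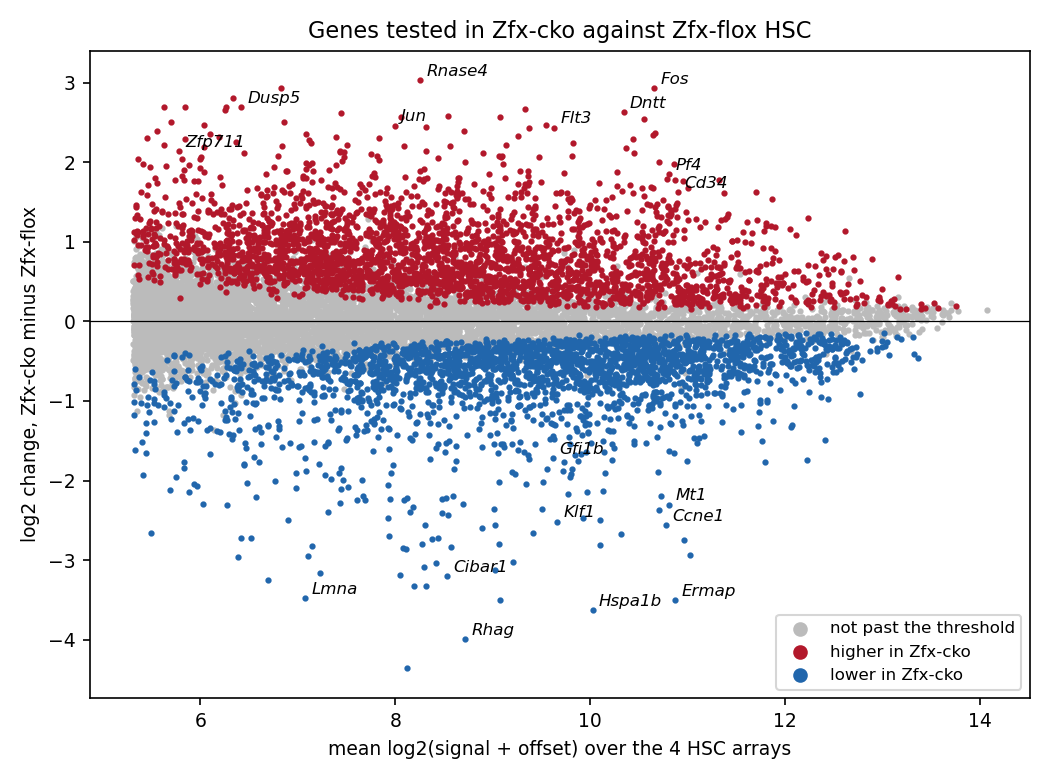
Mean log2(signal + offset) over the 4 HSC arrays (x axis) against the log2 change, Zfx-cko minus Zfx-flox (y axis), for the 12626 genes tested. Red points are the 2903 genes called higher, blue points the 2443 called lower and grey points the rest. Changes reach 3.03 for Rnase4 and −4.36 for Tlcd4, and called genes occur over nearly the whole range of brightness.

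The targeted gene itself did not show a loss of signal on its brightest probe set. It gave 696 and 752 in Zfx-flox against 1192 and 1209 in Zfx-cko, a rise of 0.72 (SE 0.11, adjusted p = 0.000579), with both Zfx-cko arrays above both Zfx-flox arrays. The next brightest gave 109 and 162 against 97.4 and 84.7, a change of −0.49 that missed the threshold (adjusted p = 0.0958 over probe sets). The third in brightness gave 28.9 and 34.3 against 36.8 and 29.7. The dimmest of these 4, at 4.32 and 9.95 against 24.9 and 18.9, was too low to test. Of 3 more that match both Zfx and the pseudogene Zfa-ps, the dimmest lay below the offset on all 4 arrays and was too low to test. The others were not called. When the probe sets were averaged rather than the brightest taken, the gene's call was lost (adjusted p = 0.143). No Zfx probe set was called lower. Since no source used here places these probes against the deleted exon, they are no check of the array labels, and Zfx-cko and Zfx-flox stand throughout for libraries so labelled.

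Zfp711, the X-linked paralog of Zfx, rose from near the offset. Its signals were 7.74 and 16.9 in Zfx-flox against 105 and 97.9 in Zfx-cko, so that its level in Zfx-flox was at the offset and no exact fold is given. It was bright enough to test only through the Zfx-cko arrays. Tested with no filter on low values, it was called higher (adjusted p = 0.000462). Another Zfp711 probe set stayed below the offset on all 4 arrays. In the group of Zfx family and X-linked dosage genes 3 of 11 tested were higher and 1 lower (median −0.09). Beside Zfx and Zfp711, the X-linked demethylase gene Kdm6a was called higher by 0.26. That call was lost without Zfx-cko replicate 2, without Zfx-flox replicate 1 and under median centring (adjusted p = 0.269). Eif2s3x was called lower by 0.22 (adjusted p = 0.0318), a call lost without a variance trend. Ddx3x and Usp9x changed by −0.16 and −0.18 on their brightest probe sets and were not called.

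**Figure D2:**
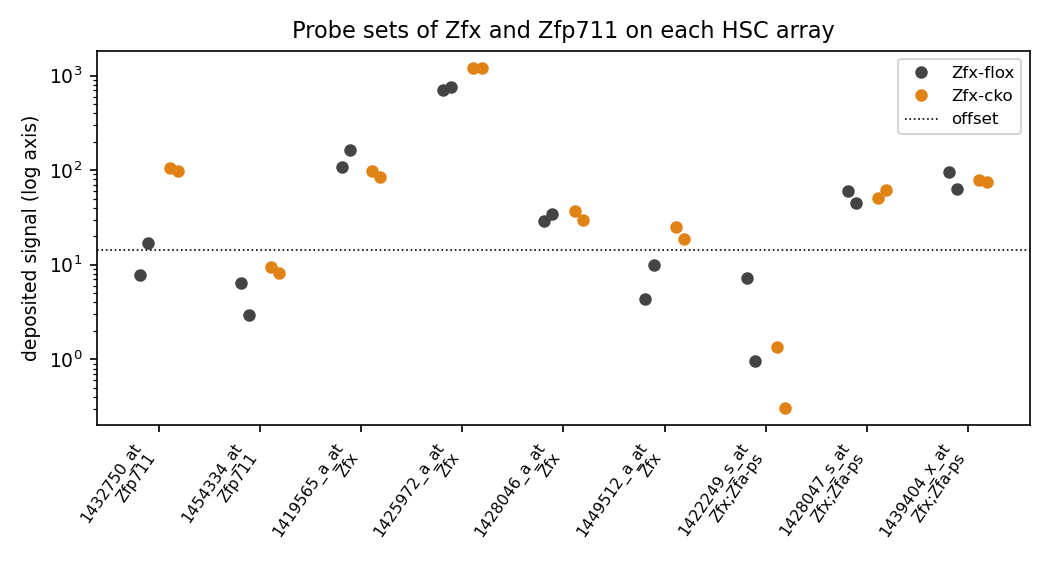
Deposited signal (log axis) of each probe set of Zfx and Zfp711 on the 2 Zfx-flox (grey) and 2 Zfx-cko (orange) arrays, with the offset as a dotted line. The brightest Zfx probe set was higher in Zfx-cko, the other Zfx probe sets that were tested were not called, and Zfp711 rose on its brighter probe set.

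Erythroid genes fell as a group. Of 26 tested, 21 were lower and 2 higher, with a median change of −1.43, against 19.3% lower among all genes. The largest fall was in Rhag, the Rh-associated glycoprotein of the red cell membrane, at 1819 and 1525 in Zfx-flox against 125 and 65.5 in Zfx-cko (log2 change −4.00, SE 0.32, adjusted p = 1.45e-05). Both Zfx-cko arrays lay more than 10-fold below both Zfx-flox arrays. Ermap, an erythroid adhesion protein, went from 6344 and 6232 to 551 and 531, an 11.6-fold lower mean. Rhd, the Rh blood group antigen, went from 983 and 1018 to 119 and 138, and the water channel gene Aqp1 from 1424 and 1371 to 185 and 192. None of these groups overlapped. The erythroid transcription factor Klf1 fell by 2.52, from 1874 and 1974 to 319 and 330.4 (SE 0.20, adjusted p = 1.68e-05), and Cpox, an enzyme of haem synthesis, by 2.36. Gata1 and the erythropoietin receptor gene Epor, named here after their values were seen, fell by 1.64 and 1.32. The genes that differed in the opposite direction were Nfe2, a factor shared with megakaryocytes, at 0.65, and the mitochondrial iron importer Slc25a37, at 0.67, also named after their values were seen. Neither call was firm: that of Nfe2 was lost without any one of the HSC arrays (adjusted p = 0.066 to 0.102), and that of Slc25a37 without Zfx-cko replicate 2 (adjusted p = 0.0595) or Zfx-flox replicate 2 (adjusted p = 0.0631). Late red cell genes were dim in both groups: Hba-a2, an alpha globin, lay at 50.6 and 55.6 in Zfx-flox against 74.6 and 70.8 in Zfx-cko and was not called (adjusted p = 0.165), and Slc4a1, Alas2 and Hba-a1 were below the level tested.

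The upstream sequences of 2 of these membrane protein genes are shown because they are the Rh partners with the deepest falls. They come from RefSeq (GRCm38.p6) and end at the base before the start site. Rhd lies on the + strand, chr4:134864286-134864535, and the capitals mark AGATAA or its reverse complement TTATCT. Rhag lies on the + strand, chr17:40810899-40811148, and the capitals mark TTATCA, the reverse complement of TGATAA.
Rhd: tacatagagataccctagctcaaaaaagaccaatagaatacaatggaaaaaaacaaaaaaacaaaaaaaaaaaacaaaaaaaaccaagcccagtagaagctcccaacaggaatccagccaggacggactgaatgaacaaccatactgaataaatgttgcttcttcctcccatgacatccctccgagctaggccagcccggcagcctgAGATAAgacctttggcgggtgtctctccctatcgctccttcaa
Rhag: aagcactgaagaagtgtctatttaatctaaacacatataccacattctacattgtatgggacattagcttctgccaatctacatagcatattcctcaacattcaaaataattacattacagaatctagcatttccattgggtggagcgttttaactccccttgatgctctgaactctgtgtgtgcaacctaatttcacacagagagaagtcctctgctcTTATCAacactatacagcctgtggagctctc
GATA factors bind such letters. In windows from 250 bases before to 50 after the start, AGATAA on either strand was present in 6 of the 17 lower erythroid genes that have a window (35.3%) and in 8.30% of all 10218 tested genes with one. Rhag had no match in that first search. A wider search, made after those counts and windows had been seen, took GATA preceded by A or T and followed by A or G, on either strand. It matched 10 of the 17 (58.8%), against 23.0% of all genes, with the Rhag match starting 31 bases before the start site. The 17 windows had a median GC content of 54.3%, against 60.3% over all genes, and matches to these A and T rich letters depend on it. A match is a description of the letters, not a binding site.

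Stem cell transcription factors moved the other way. Of 33 tested, 19 were higher and 4 lower (median 0.61). Meis1, a homeobox partner of the Hox proteins, lay at 1181 and 1086 in Zfx-flox against 3414 and 3901 in Zfx-cko (log2 change 1.68, SE 0.19, adjusted p = 0.000112), 3.23-fold higher in mean signal. Mecom, which encodes Evi1, rose from 346 and 416 to 1291 and 1338, and Hlf, a factor of long-term stem cells, from 513 and 519.9 to 1571 and 1467. Runx1 rose from 643 and 679.5 to 1932 and 1944 on its brightest probe set (log2 change 1.53, adjusted p = 1.21e-05). Of its other probe sets, 2 rose by 1.48 or more, while another changed by −0.66 (adjusted p = 0.0607 over probe sets). The Krüppel-like factor gene Klf4, which is also an early response gene, rose by 1.90. Gfi1b, a repressor used by erythroid and megakaryocytic cells, fell from 1398 and 1432 to 403 and 438 (log2 change −1.72, adjusted p = 0.00016). Lmo2 (4191 and 4299 in Zfx-flox against 5246 and 5235 in Zfx-cko) and Hoxa9 (2442 and 2364 in Zfx-flox against 3710 and 3599 in Zfx-cko) were higher on both Zfx-cko arrays, but missed the threshold at adjusted p = 0.372 and 0.076. Both were called when the HSC arrays were fitted alone, with adjusted p = 0.000516 for Lmo2 and 2.5e-05 for Hoxa9.

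Surface and quiescence genes of stem cells showed a like pattern, with 20 of 34 higher and 4 lower (median 0.64), the latter 2 without Zfx-cko replicate 1 or Zfx-flox replicate 1. Procr, the endothelial protein C receptor found on long-term stem cells, lay at 278 and 335 in Zfx-flox against 1713 and 1788 in Zfx-cko (log2 change 2.47, SE 0.12, adjusted p = 1.08e-06). Cd34, whose level divides the population into stem cell and progenitor fractions, lay at 1058 and 1092 in Zfx-flox against 3349 and 3327 in Zfx-cko, a 3.11-fold difference in means (log2 change 1.62, adjusted p = 3.9e-06). Hmga2, a chromatin protein tied to fetal stem cell self-renewal, rose from 643 and 758 to 3552 and 3626, and Cd9, a tetraspanin, from 349 and 310.5 to 991 and 1081. Itgb3, the beta 3 integrin of stem cells and platelets, rose from 9.57 and 24.7, near the offset, to 169 and 187. Ryk, a Wnt receptor, was the deepest fall of the group, from 879.7 and 822 to 158 and 135 (log2 change −2.43, adjusted p = 7.43e-07). Slamf1, which encodes the stem cell marker CD150, lay at 401 and 339 in Zfx-flox against 453 and 501 in Zfx-cko and was not called (adjusted p = 0.157). Ndn (−0.15) and Eng (0.07) were not called either.

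Lymphoid-primed progenitor genes were higher in 12 of 24 and lower in 2 (median 0.72), with 1 lower without Zfx-cko replicate 1 or without either Zfx-flox array. Flt3, the cytokine receptor that marks lymphoid-primed progenitors, lay at 289.7 and 367 in Zfx-flox against 1757 and 1901 in Zfx-cko (log2 change 2.44, SE 0.14, adjusted p = 2.55e-06), 5.57-fold higher in mean. Dntt, the terminal transferase used in antigen receptor joining, rose from 462 and 559 to 2992 and 3452 (log2 change 2.63, adjusted p = 1.02e-05). Ccr9, a thymus homing receptor, rose from 13.2 and 14.3, at the offset, to 138 and 142. Satb1, a chromatin organiser of lymphoid progenitors, went from 709.8 and 716 to 2155 and 2350, and Cd52 from 905 and 852 to 2921 and 2782. Not every gene of the group was higher: Bcl11a, which B cell development needs, lay at 3537 and 3477 in Zfx-flox against 2487 and 2656 in Zfx-cko with an adjusted p of 0.477 in the fit of all arrays, but was called lower with the HSC arrays alone (adjusted p = 0.000174) and without either ESC Zfx-flox array, and Tcf3, which encodes the E2A proteins, changed by −0.21 (adjusted p = 0.11). Markers of finished B, T and NK cells gave 4 higher and 0 lower of 13 tested, among them Cd79b, from 68.8 and 69.7 to 209 and 223, and Thy1, from 45.2 and 43.2 to 118 and 109.7, while Cd8a lay at 109 and 88.1 in Zfx-flox against 105 and 86.3 in Zfx-cko. The part of such cells in the result was not tested.

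Megakaryocyte and platelet genes were higher in 15 of 25 and lower in 1 (median 0.65), with 0 lower without any one of the HSC arrays. Pf4, the platelet factor 4 chemokine, lay at 974 and 887 in Zfx-flox against 3374 and 3404 in Zfx-cko (log2 change 1.85, SE 0.18, adjusted p = 4.48e-05). Plek, a kinase substrate of platelets, rose from 419 and 426 to 1774 and 1896, Cavin2 from 199 and 204 to 746 and 724 and the clotting protein gene Vwf from 65.7 and 77.5 to 202 and 254. Gp9, a subunit of the Vwf receptor, rose from 11.9 and 21.4 to 176 and 112. Its partner Gp5 lay at 161 and 153 in Zfx-flox against 118 and 136 in Zfx-cko and was not called (adjusted p = 0.328), nor were Treml1 (146 and 87.7 in Zfx-flox against 176 and 135 in Zfx-cko) and Selp (99.5 and 70.0 in Zfx-flox against 143 and 143 in Zfx-cko). Red cell and platelet genes, which share progenitors, were thus called mostly in opposite directions in the same sorted population.

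Granulocyte and monocyte genes were higher in 12 of 36 (33.3%) and lower in 3, with a median of 0.26. Without an offset 6 of them were called higher, and 1 was lower without Zfx-cko replicate 1 or Zfx-flox replicate 1. The lysozyme gene Lyz2 rose from 494 and 438 to 1176 and 1153 (log2 change 1.30, adjusted p = 0.000557), and Gfi1, a repressor needed for neutrophils and stem cell quiescence, from 322 and 288 to 622 and 636. The granule genes Mpo, at 8299 and 8137 in Zfx-flox against 10524 and 9808 in Zfx-cko, and Prtn3, at 2025 and 2010 in Zfx-flox against 2320 and 2250 in Zfx-cko, missed the threshold in the fit of all arrays, with adjusted p = 0.279 and 0.633, but were called higher with the HSC arrays alone (adjusted p = 0.000903 and 0.0147). Among mast cell, basophil and eosinophil genes 8 of 20 were higher and 0 lower, and 5 were higher without Zfx-cko replicate 2. Rgs1, a regulator of G protein signalling, rose from 359.8 and 263 to 1169 and 1196, and the Fc receptor chains Fcer1g and Fcer1a rose from 132 and 125 to 341 and 324 and from 108 and 103 to 249 and 265. Ms4a2, the beta chain of the same receptor, lay at 422 and 404 in Zfx-flox against 456 and 421 in Zfx-cko. Stromal and endothelial markers gave 3 higher and 1 lower of 12 tested, among them the pericyte receptor gene Pdgfrb, from 197 and 194 to 843 and 809.7, while the collagen gene Col1a2 lay at 81 and 93.8 in Zfx-flox against 103 and 93.8 in Zfx-cko. The part of other cell types in these differences was not tested.

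**Figure D3:**
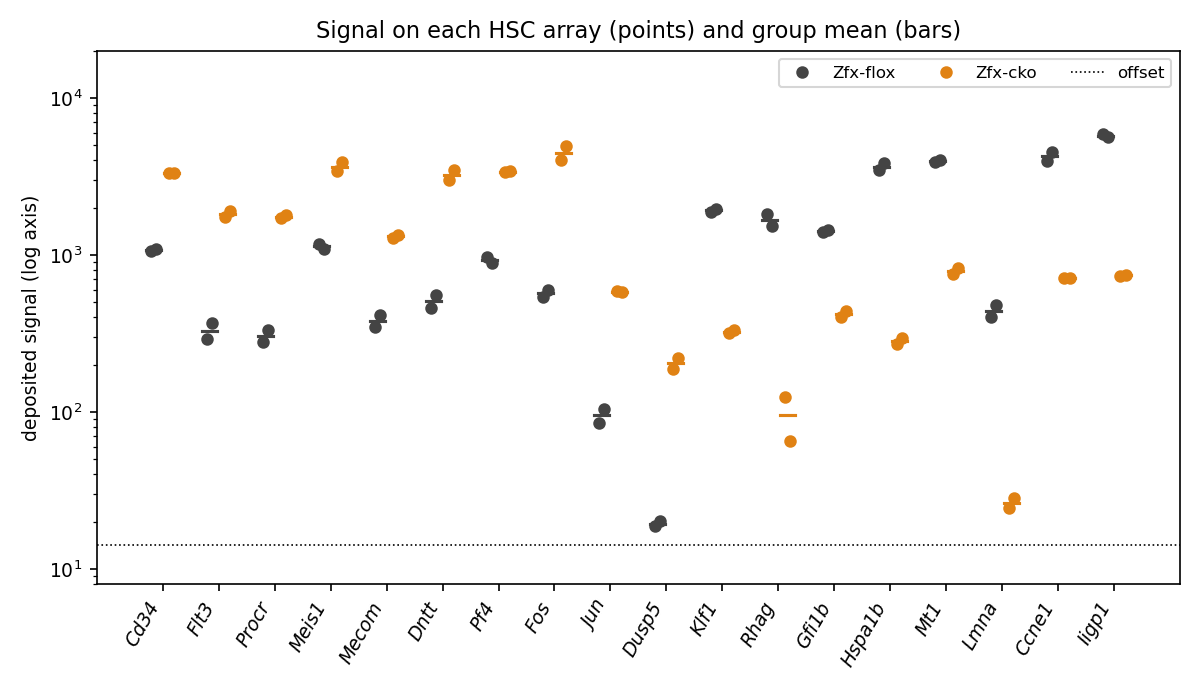
Deposited signal (log axis) of 18 genes on the 2 Zfx-flox (grey) and 2 Zfx-cko (orange) HSC arrays, with short bars at the group means and the offset as a dotted line. Stem, lymphoid, platelet and early response genes at the left lie higher in Zfx-cko, and the erythroid, chaperone, metallothionein, lamin, cyclin and interferon response genes at the right lower, with no overlap between groups.

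Early response genes, which are switched on within minutes of a stimulus, held a larger share of higher genes than any other group examined, 25 of 36 (69.4%), with 2 lower and a median of 0.89. Fos, a subunit of the AP-1 factor, lay at 542 and 598 in Zfx-flox against 4020 and 4923 in Zfx-cko (log2 change 2.94, SE 0.11, adjusted p = 4.81e-07), a 7.85-fold difference in means. Its partner Jun went from 85.5 and 104 to 587 and 582 (log2 change 2.46, adjusted p = 6.6e-06), and a second Jun probe set rose by 1.39. Ier3 rose from 243 and 278 to 1373 and 1355 and Csrnp1 from 78.5 and 63.5 to 322 and 314. Plk2, a stress-induced kinase gene, rose from 5.68 and 5.33, below the offset, to 74.8 and 92.7. Myc, also an early response gene, did not follow: it lay at 2279 and 2218 in Zfx-flox against 2003 and 2231 in Zfx-cko, overlapping between groups. Mafk (173 and 211 in Zfx-flox against 204 and 266 in Zfx-cko) was not called, nor was Btg1 on its brightest probe set (3814 and 3602 in Zfx-flox against 4133 and 3892 in Zfx-cko), though its other probe sets rose by 0.28 and 1.96 (adjusted p = 0.0182 and 6.49e-05 over probe sets).

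Inhibitors that ERK signalling induces against itself were higher in 9 of 18, with 0 lower (median 0.39), and in 4 with the mean of all probe sets of a gene. Dusp5, a nuclear ERK phosphatase, lay at 18.7 and 20.1 in Zfx-flox against 189 and 220.2 in Zfx-cko, with no overlap between the groups (adjusted p = 7.05e-06 with no filter on low values). Dusp1, a stress-induced phosphatase, rose from 208 and 223 to 786 and 1226, Dusp2 from 204 and 229 to 645 and 627 and Dusp6, the cytoplasmic ERK phosphatase, from 750.4 and 766 to 1198 and 1301. The upstream sequence of Dusp5 (RefSeq, GRCm38.p6, + strand, chr19:53528895-53529144) is shown with 2 adjoining CArG boxes in capitals, the letters that serum response factor binds. It was chosen after the windows had been searched.
Dusp5: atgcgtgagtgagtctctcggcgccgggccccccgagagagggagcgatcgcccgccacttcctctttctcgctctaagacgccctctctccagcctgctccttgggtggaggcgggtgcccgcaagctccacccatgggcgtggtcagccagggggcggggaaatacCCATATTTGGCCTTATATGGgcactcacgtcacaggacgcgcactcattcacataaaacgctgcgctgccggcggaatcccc
These boxes start 82 and 72 bases before the start site. A CArG box was found in 1 of the 21 higher early response genes with a window (4.76%), against 1.52% of all genes. The share among the ERK inhibitor genes was not counted. The 250 bases before the Fos start site held none, and bases further upstream were not searched.

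NF-kB pathway genes and targets were higher in 15 of 26 and lower in 3 (median 0.52), with 9 higher without Zfx-flox replicate 2. The chemokine genes Ccl3 and Ccl4 rose from 64.8 and 48.6 to 412 and 424 and from 123 and 84.4 to 394 and 349.7. The adhesion receptor gene Icam1 rose from 215 and 219 to 506 and 562, and the inhibitor gene Nfkbiz from 186 and 190.5 to 479 and 513. Tnfaip2 went the opposite way, from 6515 and 6613 to 1928 and 1899 (log2 change −1.77, adjusted p = 5.41e-06). The subunit genes Rela (919 and 1017 in Zfx-flox against 792 and 877 in Zfx-cko) and Ikbkb (1225 and 1156 in Zfx-flox against 1318 and 1383 in Zfx-cko) were not called on their brightest probe sets. A dimmer Ikbkb probe set rose by 1.01 (adjusted p = 0.00317 over probe sets).

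The tumour suppressor p53 answers DNA damage. Of genes listed here as p53 targets or relatives of such targets, 18 of 34 were higher and 5 lower (median 0.47). Whether p53 controls them in these cells was not tested. Trp53inp1 rose from 850.2 and 882 to 2946 and 2726 (log2 change 1.69, adjusted p = 6.57e-07), Sesn3, a stress-induced metabolic regulator, from 178 and 183 to 574 and 637, and Ccng2, an atypical cyclin, from 880.3 and 826 to 2537 and 2606. Zmat3 fell from 286 and 341 to 120.1 and 116. Apaf1, a core of the death machinery, lay at 950.3 and 927 in Zfx-flox against 976 and 970.2 in Zfx-cko, and Phlda3 at 139 and 140.5 in Zfx-flox against 148 and 123 in Zfx-cko, neither called. In the Bcl2 family and cell death group 16 of 32 were higher and 2 lower. This number was 10 without Zfx-cko replicate 1 or without Zfx-flox replicate 2, and 9 without Zfx-cko replicate 2. The survival gene Bcl2 rose from 803 and 827 to 2626 and 2655 (log2 change 1.68, adjusted p = 7.33e-05) and Cflar, an inhibitor of caspase 8, from 499 and 509 to 984 and 972. Pmaip1, which encodes the death protein Noxa, rose from 54.5 and 51.3 to 84.1 and 120.3, whereas the death gene Bid fell from 413 and 502 to 255 and 254. The caspase genes Casp4 and Casp12 were also higher, by 0.95 and 0.87 (adjusted p = 0.0135 and 0.00344). Genes that protect from death and genes of the death machinery thus both stood among the higher calls.

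Heat shock and cochaperone genes fell in 26 of 37, with 1 higher and a median of −0.49. Hspa1b, an inducible HSP70, lay at 3475 and 3834 in Zfx-flox against 269 and 297 in Zfx-cko (log2 change −3.63, SE 0.12, adjusted p = 3.61e-07), a 12.9-fold lower mean. Its near-identical copy Hspa1a lay at 292 and 320.3 in Zfx-flox against 17.6 and 21.4 in Zfx-cko, and the probe sets of such copies may share transcripts. Hsph1, an HSP70 partner, fell from 3416 and 3531 to 1485 and 1416, and the cochaperone genes Bag2 and Bag1 from 658 and 582 to 212 and 205 and from 1419 and 1367 to 654 and 638. Fkbp4, an HSP90 cochaperone, fell from 681 and 672 to 329 and 344. The brightest probe sets of the constitutive chaperonin gene Cct4, at 10006 and 10314 in Zfx-flox against 10179 and 9743 in Zfx-cko, and of Hsp90aa1, at 8823 and 8727 in Zfx-flox against 7666 and 7622 in Zfx-cko, were not called (adjusted p = 0.771 and 0.129). On both genes 3 other probe sets were lower, by 0.23 to 0.70 for Cct4 and by 0.23 to 0.68 for Hsp90aa1, and the mean of all probe sets was called lower (adjusted p = 0.00987 and 0.00527). Hspa8, also not called on its brightest probe set (adjusted p = 0.137), had probe sets past the threshold in both directions.

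The upstream sequence of Hspa1b is shown because it had the third deepest fall of all genes and a heat shock motif. It comes from RefSeq (GRCm38.p6, − strand, chr17:34959239-34959488), with GAANNTTC, part of the element that heat shock factor binds, and AGGCCT, the core of the known Zfx motif, in capitals.
Hspa1b: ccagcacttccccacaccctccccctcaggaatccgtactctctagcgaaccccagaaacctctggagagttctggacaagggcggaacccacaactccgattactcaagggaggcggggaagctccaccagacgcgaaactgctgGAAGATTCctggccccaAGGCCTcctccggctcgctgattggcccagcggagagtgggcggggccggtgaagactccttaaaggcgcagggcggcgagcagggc
The first run of capitals starts 104 and the second 87 bases before the start site. Of the 250 bases, 247 are the same in Hspa1a. GAANNTTC, which was chosen after the group's fall had been seen, was present in 10 of the 24 lower heat shock genes with a window (41.7%) and in 7.24% of all genes. The 10 include both Hspa1a and Hspa1b, so nearly the same sequence is counted for both.

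AGGCCT, its own reverse complement, was present in the windows of 294 of 2338 genes higher in Zfx-cko (12.6%) and of 275 of 2024 genes lower (13.6%), against 1288 of 10218 tested genes (12.6%). The shares of the higher and of the lower genes thus lay near that of all genes. Among the lower heat shock genes 7 of 24 held it (29.2%), the near-identical Hspa1a and Hspa1b both counted. Among the lower erythroid genes it was 1 of 17 (5.88%).

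Metallothionein and antioxidant genes were lower in 17 of 27 and higher in 2 (median −0.45). Mt1 and Mt2, which bind zinc and copper, lay at 3890 and 4056 in Zfx-flox against 759 and 829.7 in Zfx-cko and at 8842 and 8693 in Zfx-flox against 2539 and 2665 in Zfx-cko, falls of 2.30 and 1.75. Nfe2l2, which encodes the antioxidant factor NRF2, fell from 2741 and 2880 to 1132 and 1162 (log2 change −1.28, adjusted p = 1.5e-06), and Gsr, which regenerates glutathione, from 311 and 298 to 121 and 89.4. Blvrb, a biliverdin reductase abundant in red cell precursors, fell from 1174 and 1333 to 201 and 200.2. The thioredoxin gene Txn1 (12061 and 12845 in Zfx-flox against 11857 and 11611 in Zfx-cko) and Gpx1 (6632 and 6830 in Zfx-flox against 6839 and 6714 in Zfx-cko) were not called.

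Interferon response genes were higher in 11 of 44 and lower in 10, shares near those of all genes. Both groups had been injected with pI·C. Calls ran both ways within the group. The interferon-gamma induced GTPase genes Iigp1 and Igtp fell from 5914 and 5609 to 736 and 744 and from 4961 and 5330 to 711 and 804 (−2.94 and −2.74), and Isg20 fell from 1941 and 1908 to 738 and 720.1. The antiviral genes Rsad2 and Ifit1 rose from 174 and 164 to 496 and 476 and from 142 and 144 to 370.4 and 374. Ifi47, another such GTPase, lay at 5861 and 6112 in Zfx-flox against 4402 and 4271 in Zfx-cko and was not called in the fit of all arrays (adjusted p = 0.213), but was called lower with the HSC arrays alone (adjusted p = 7.45e-05) and without either ESC Zfx-null array. Antigen presentation genes were higher in 5 of 21 and lower in 5. They included Cd1d1, which presents lipids, from 1275 and 1491 to 3235 and 3531, and Tapbp, which loads peptides, from 2501 and 2497 to 1266 and 1278. H2-K1 (5864 and 5820 in Zfx-flox against 6306 and 6617 in Zfx-cko) and B2m (10261 and 10344 in Zfx-flox against 11427 and 11052 in Zfx-cko) were not called.

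Genes of DNA replication and nucleotide supply were lower in 29 of 48 (60.4%) and higher in 0, with a median of −0.35. The falls were small. Cdc6, which loads the replicative helicase, went from 2135 and 2297 to 1136 and 1136 (log2 change −0.95, SE 0.081, adjusted p = 2.19e-05), Timeless from 1664 and 1701 to 885 and 1061 and Clspn, a checkpoint adaptor, from 758 and 782 to 458 and 453. Helicase and clamp genes of high signal were not called, among them Mcm7 (8816 and 9011 in Zfx-flox against 8338 and 8494 in Zfx-cko) and Pcna (7724 and 7563 in Zfx-flox against 6884 and 6972 in Zfx-cko, adjusted p = 0.0657). Both dimmer Mcm7 probe sets that passed were lower, by 0.47 and 0.42. Mitosis genes were lower in 17 of 51 and higher in 8, and 10 were lower without Zfx-cko replicate 2 and 11 without Zfx-flox replicate 2, while 5 were higher without Zfx-cko replicate 1 and 4 without Zfx-flox replicate 1. Cdc25b had the largest change of the mitosis genes, a rise of 0.69 (adjusted p = 0.00168). Mad2l1, a spindle checkpoint gene, fell from 6588 and 6676 to 4407 and 4766, and Cdc20 lay at 6308 and 6475 in Zfx-flox against 6524 and 6606 in Zfx-cko.

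G1 cyclins and kinases gave 5 higher and 7 lower of 23, with 3 higher without either Zfx-cko array and 3 lower without Zfx-flox replicate 2. CDK inhibitors and Rb family genes gave 6 higher and 3 lower of 15. Ccne1, the cyclin E gene that drives entry into S phase, fell from 3965 and 4552 to 711 and 708 (log2 change −2.56, SE 0.16, adjusted p = 3.45e-06), a 6-fold lower mean. Ccnd1, the cyclin D1 gene, rose from 304 and 301 to 769.7 and 695 (log2 change 1.24, adjusted p = 2.65e-06). The inhibitor genes Cdkn1a and Cdkn2d rose from 226 and 223 to 473 and 528 and from 335 and 224 to 643 and 581. Cdkn1b rose from 251 and 243 to 570.3 and 521 on its brightest probe set, a call that the mean of its probe sets did not keep (adjusted p = 0.171). Cdkn2c lay at 851 and 863 in Zfx-flox against 677 and 833 in Zfx-cko.

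Ribosome biogenesis was among the most uniform falls: 37 of 47 genes were lower and 0 higher (median −0.54). Nolc1, a nucleolar phosphoprotein, fell from 1789 and 1902 to 689.5 and 730.3 (log2 change −1.36, adjusted p = 8.27e-06), Ddx21, a nucleolar helicase, from 2100 and 2018 to 1119 and 1046, and Pno1, a small subunit assembly factor, from 1712 and 1746 to 927 and 886. The abundant nucleolar genes Nop10 (8888 and 8842 in Zfx-flox against 8392 and 8241 in Zfx-cko) and Rrs1 (5965 and 6040 in Zfx-flox against 5820 and 5403 in Zfx-cko) were not called on their brightest probe sets, while dimmer ones were lower by 0.42 and 0.97 (adjusted p = 0.00131 and 3.4e-05 over probe sets). Cytosolic ribosomal protein genes did not fall with them: 6 of 34 were higher and 1 lower (0 without either Zfx-cko array or Zfx-flox replicate 2), with a median of 0.14. These calls were few and unstable, at 2 or 3 higher without any one of the HSC arrays and 24 when the HSC arrays were fitted alone. Rps18, at 16471 and 16330 in Zfx-flox against 18799 and 17346 in Zfx-cko, was not called. Aminoacyl-tRNA synthetase and translation factor genes were lower in 20 of 35 and higher in 3, such as Hars, from 5680 and 5746 to 3329 and 3359, Mars1, from 1841 and 1899 to 1082 and 1136, and the initiation factor gene Eif2s2, from 5369 and 4802 to 2565 and 2533.

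Mitochondrial genes fell as well. Among mitochondrial ribosome and biogenesis genes 28 of 42 were lower and 0 higher (median −0.44), and among oxidative phosphorylation genes 26 of 51 and 0 (median −0.20). Mrpl12, a large subunit protein, went from 1498 and 1569 to 678 and 571 (log2 change −1.28, adjusted p = 1.92e-05), and Mrps28 from 3077 and 2699 to 1407 and 1540. The complex I genes Ndufb10 and Ndufs1 fell from 1965 and 1975 to 955 and 951 and from 1421 and 1442 to 759.7 and 800.0, and the complex III gene Uqcrfs1 from 2847 and 3080 to 1644 and 1742. Uqcrb, another complex III gene, lay at 12202 and 12192 in Zfx-flox against 13138 and 12651 in Zfx-cko and was not called, while a dimmer probe set of it was lower by 0.26 (adjusted p = 0.0182 over probe sets).

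Proteasome subunit genes were lower in 30 of 35 (85.7%) and higher in 0 (median −0.56). The regulatory particle genes Psmd2, Psmd12 and Psmd1 fell from 2689 and 2470 to 1130 and 1172, from 2076 and 2013 to 1013 and 974 and from 1737 and 1806 to 919 and 833. The core particle genes Psmb4 (7739 and 7811 in Zfx-flox against 7790 and 7404 in Zfx-cko) and Psma5 (6948 and 7008 in Zfx-flox against 6510 and 6469 in Zfx-cko) were not called on their brightest probe sets, while dimmer ones were lower by 0.41 and 0.78 (adjusted p = 0.000715 and 1.2e-05 over probe sets). Psma6, also not called on its brightest probe set (adjusted p = 0.23), had probe sets past the threshold in both directions. In the endoplasmic reticulum, chaperone and unfolded protein response genes were lower in 13 of 34 and higher in 5, with 8 lower without Zfx-cko replicate 1 and 7 without Zfx-flox replicate 2. The largest changes in that group were rises, of Ern1 by 0.82 and Atf6 by 0.75 (adjusted p = 0.0018 and 0.000592). Canx, a glycoprotein chaperone, fell from 7265 and 7627 to 4971 and 4857, and Calr lay at 5240 and 5722 in Zfx-flox against 5870 and 5888 in Zfx-cko. ATF4 targets, which answer amino acid shortage, split into 12 higher and 7 lower of 33. Asns, asparagine synthetase, and Slc7a5, a leucine transporter, fell from 2533 and 2607 to 916 and 852 and from 1633 and 1688 to 623 and 732, while Vldlr, a lipoprotein receptor, rose from 74 and 73.7 to 254 and 289.

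**Figure D4:**
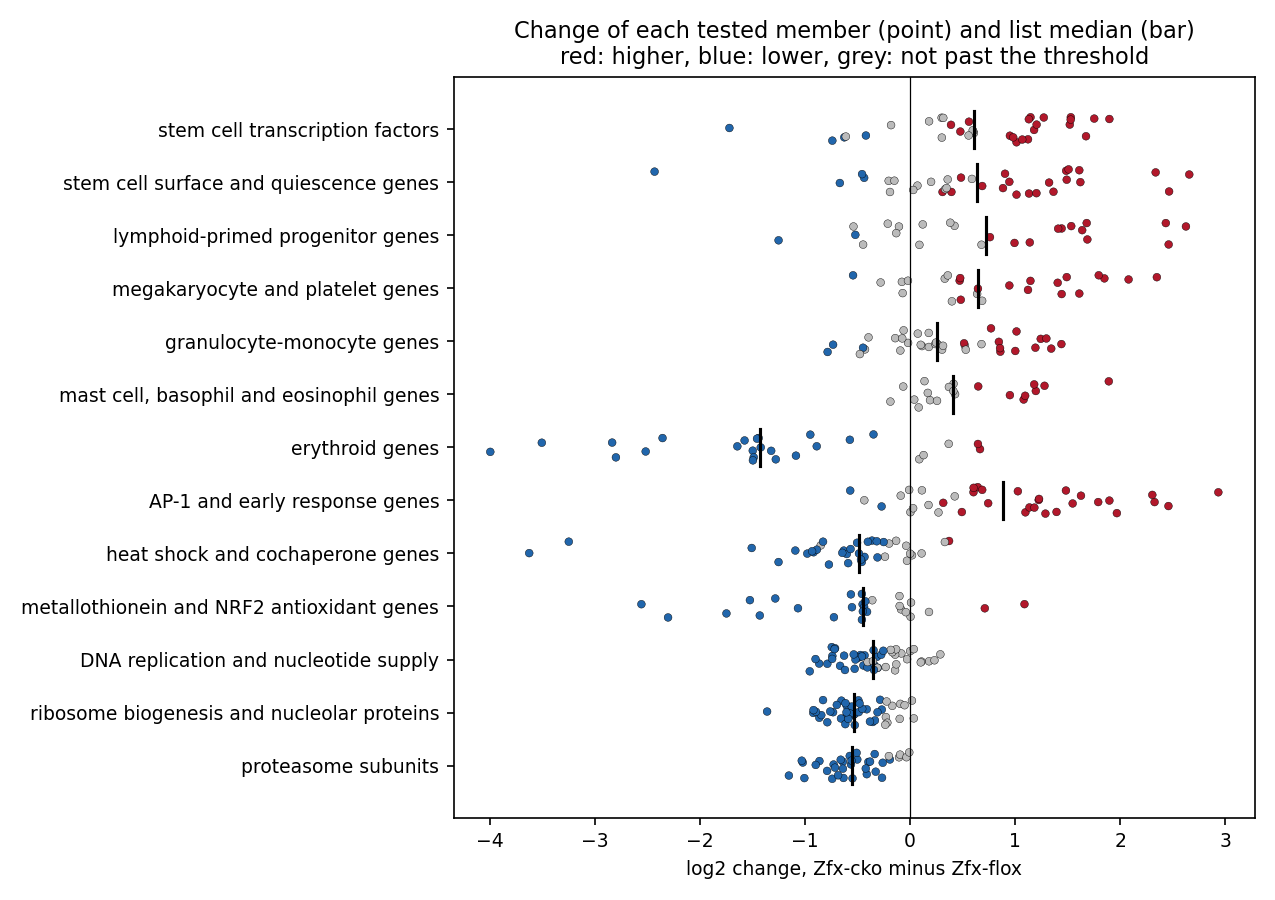
Log2 change, Zfx-cko minus Zfx-flox (x axis), of every tested member of 13 gene groups (points, with vertical scatter for legibility) and the group median (black bars). Red points were called higher, blue points lower and grey points neither. Erythroid genes centre on −1.43 and early response genes on 0.89, and the proteasome and ribosome biogenesis genes lie in a narrow band mostly below 0.

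Metabolic genes were mixed. Glycolysis and hypoxia genes were higher in 14 of 30 and lower in 6, with 9 higher without Zfx-cko replicate 2. The hypoxia-induced genes Ndrg1 and Egln3 rose from 816 and 802 to 2184 and 2086 and from 449.8 and 367 to 1066 and 1074, and the glucose transporter gene Slc2a1 from 184 and 198 to 442 and 418, whereas the lactate transporter gene Slc16a1 fell from 3207 and 3167 to 851 and 838 (log2 change −1.90, adjusted p = 1.94e-07). The glycolytic gene Tpi1 lay at 4198 and 4208 in Zfx-flox against 4225 and 4264 in Zfx-cko. Cholesterol and fatty acid synthesis genes were lower in 17 of 34 and higher in 5, with 11 lower by the mean of all probe sets. Acss2, which makes acetyl-CoA, fell from 2208 and 2140 to 657 and 628, and Scd1, a desaturase, from 129 and 109 to 45.7 and 56.6, while Elovl5 lay at 6098 and 6303 in Zfx-flox against 6177 and 6344 in Zfx-cko. Lysosome and autophagy genes gave 9 higher and 13 lower of 40, including the cathepsin gene Ctss, from 1110 and 1190 to 2656 and 2810, and the factor gene Tfe3, from 189.5 and 167 to 93.9 and 84.7.

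Receptor and adhesion genes were more often higher than lower. Cytokine and chemokine receptor genes rose in 25 of 43 and fell in 3 (median 0.59), led after Ccr9 and Flt3 by Il1r1, the interleukin 1 receptor, from 34.6 and 44.1 to 219 and 244 (log2 change 2.20, adjusted p = 3.26e-05). Il21r rose from 24.5 and 10.2 to 125 and 127. The macrophage receptor gene Csf1r lay at 581 and 561 in Zfx-flox against 669 and 713 in Zfx-cko and was not called. Adhesion receptors rose in 19 of 38 and fell in 3 (median 0.66), with 12 higher by the mean of all probe sets. Cd53, a tetraspanin, rose from 932 and 1072 to 2566 and 2680, and Alcam from 553 and 559 to 1433 and 1480, while Cd44 (3322 and 3439 in Zfx-flox against 3784 and 3876 in Zfx-cko) and Itga4 (1398 and 1406 in Zfx-flox against 1169 and 1259 in Zfx-cko) were not called.

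Cytoskeletal genes were higher in 20 of 38 and lower in 5 (median 0.34), yet the largest changes were falls. Lmna, the A-type lamin of the nuclear envelope, went from 401 and 477 to 24.5 and 28.1 on its brightest probe set (log2 change −3.48, SE 0.14, adjusted p = 5.15e-07). Of its other tested probe sets, one fell by 1.56 and one changed by −0.11 (adjusted p = 0.726 over probe sets). Myh10, a nonmuscle myosin heavy chain, fell from 2694 and 3137 to 362 and 443, although its second probe set, at 33.9 and 22.9 against 33.9 and 32.2, changed by 0.16. The calcium-binding genes S100a6 and S100a4 rose from 232 and 218 to 586 and 619 and from 82.8 and 98.7 to 261 and 262, and Cnn2, a calponin, from 484 and 475 to 1108 and 1179. The actin gene Actb lay at 7258 and 7280 in Zfx-flox against 7808 and 7456 in Zfx-cko.

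Of Notch, Wnt and TGF-beta pathway genes 13 of 34 were higher and 3 lower (median 0.10). The TGF-beta and BMP signal transducer genes Smad1 and Smad4 rose from 1528 and 1476 to 4665 and 4573 and from 1434 and 1557 to 3527 and 3594 (1.24 for Smad4, and 0.60 on the probe set that was brightest over all arrays). Notch1 rose from 499 and 499 to 1456 and 1492 on its brightest probe set, while the other changed by −0.63 (adjusted p = 0.0997 over probe sets). The Wnt receptor gene Fzd7 fell from 612 and 666 to 120.2 and 100.1 (log2 change −2.40, adjusted p = 5.44e-07), and Ctnnb1, which encodes beta-catenin, lay at 7052 and 8081 in Zfx-flox against 7736 and 8548 in Zfx-cko. JAK-STAT components were higher in 13 of 28 and lower in 4 (2 without Zfx-cko replicate 1 or either Zfx-flox array), among them the feedback inhibitor genes Socs3 and Socs2, from 63.7 and 81.6 to 185 and 279 and from 502 and 485 to 895 and 925, and the kinase gene Pim1, from 1993 and 2057 to 4079 and 4171. In the Myc and Id group 7 of 17 were higher and 0 lower. Id2, an inhibitor of E proteins, rose from 130.1 and 169.6 to 559 and 541, and the Myc antagonist gene Mxd4 from 430.5 and 413 to 1036 and 1062.

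Groups of chromatin, RNA and developmental genes held calls in both directions. Polycomb and DNA methylation genes were higher in 13 of 34 and lower in 7. The methylcytosine oxidase gene Tet1 rose from 363 and 449.6 to 1099 and 1108 (log2 change 1.42, adjusted p = 4.05e-06) and the methyltransferase gene Dnmt3b from 2670 and 2682 to 5208 and 4995, while Phc2, a polycomb subunit, fell from 1275 and 1256 to 590.0 and 568, and Dnmt1 lay at 3077 and 3136 in Zfx-flox against 3379 and 3332 in Zfx-cko. The number of lower genes was 4 without Zfx-cko replicate 1 or without Zfx-flox replicate 1. Spliceosome genes were lower in 23 of 52 and higher in 9, with 15 lower without Zfx-flox replicate 2. Rbm39 rose from 2353 and 2516 to 5597 and 5602 and Srsf2 fell from 3482 and 3637 to 1633 and 2185. Of 16 noncoding and snoRNA host genes 3 were higher and 4 lower: the nuclear RNA Malat1 rose from 632 and 649 to 1496 and 1533, and the snoRNA hosts Snhg3 and Snhg4 fell from 2379 and 2381 to 787 and 825 and from 1076 and 1100 to 555 and 586, while Gas5 lay at 6399 and 6662 in Zfx-flox against 7064 and 7194 in Zfx-cko. Hox genes and partners gave 3 higher and 1 lower of 17, with 0 lower without Zfx-cko replicate 2 or either Zfx-flox array, and Hoxa7 rose from 83.1 and 97.3 to 257 and 191. Imprinted genes gave 4 higher and 5 lower of 23. Asb4 rose from 5.05 and 12.1 to 145 and 119, and Grb10 fell from 1433 and 1467 to 865 and 981 on its brightest probe set, a call not kept by the mean of its probe sets (adjusted p = 0.224). The 5 lower imprinted genes became 1 without Zfx-cko replicate 2 and 2 without either Zfx-flox array, and the 4 higher ones became 2 without Zfx-cko replicate 1. Genes of DNA damage response and repair were lower in 12 of 37 and higher in 3, with fewer lower without Zfx-flox replicate 1. Their largest changes were the 3 rises, of Atm by 0.90, Lig4 by 0.87 and Trp53bp1 by 0.69 on their brightest probe sets. Msh6, a mismatch repair gene, fell from 1668 and 1811 to 1081 and 1138, a change of −0.64.

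**Figure D5:**
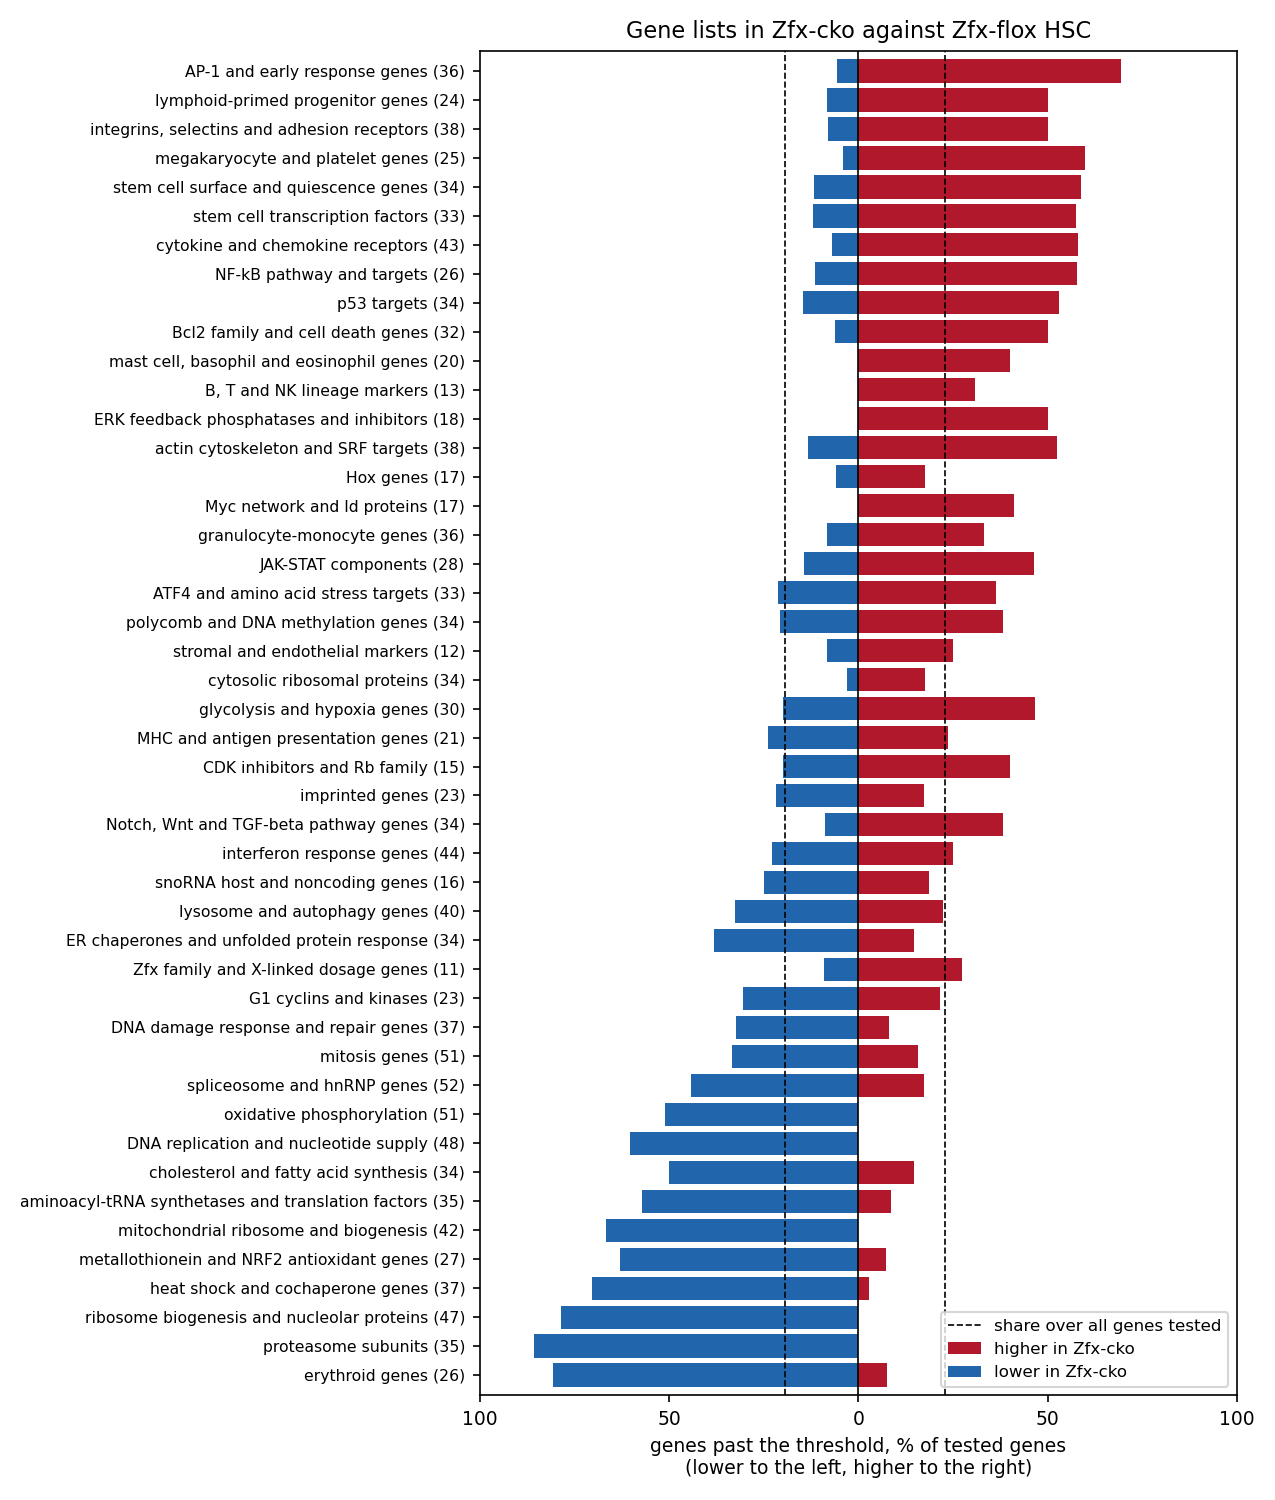
Share of each group's tested genes called higher (red, to the right) or lower (blue, to the left) in Zfx-cko, for 46 gene groups ordered by median change, with the number tested in brackets. Dashed lines mark the shares over all 12626 genes, 23.0% higher and 19.3% lower. Early response genes reach 69.4% higher, and proteasome subunits 85.7% and erythroid genes 80.8% lower.

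Beyond these groups, the largest rise of all was in Rnase4, a secreted ribonuclease, at 98.2 and 87.2 in Zfx-flox against 888 and 832 in Zfx-cko (log2 change 3.03, SE 0.098, adjusted p = 3.43e-07), 9.28-fold higher in mean. Trat1, a T cell receptor adaptor, rose from 26.1 and 28 to 317 and 285, a log2 change of 2.93 that was 1.15 on the probe set that was brightest over all 8 arrays. Tespa1, a thymocyte signalling protein, rose from 89.9 and 101 to 636 and 639.5. Cd244a, a receptor of NK cells and of multipotent progenitors, rose from 201 and 212 to 1309 and 1291, and H2-Ob, a class II chaperone, from 244 and 239.7 to 1644 and 1579. Emp1, a membrane protein, rose from 146 and 130.3 to 889 and 898. Entpd1, the ectonucleotidase CD39, rose from 31 and 6.4 to 191 and 209 (2.81, and 1.15 on the probe set that was brightest over all arrays). The dimmer genes Chl1 and Fgf13 rose from 12.3 and 20.3 and from 5.28 and 5.22 to 174 and 189 and 106 and 117, with Fgf13 below the offset on both Zfx-flox arrays.

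The deepest fall was in Tlcd4, a membrane protein with a lipid-sensing type of domain, at 1364 and 1142 in Zfx-flox against 56.6 and 39 in Zfx-cko (log2 change −4.36, SE 0.34, adjusted p = 1.34e-05). Both of its other tested probe sets fell too, by 2.93 or more. Cldn13, a claudin, fell from 1743 and 1878 to 148 and 145, and Sphk1, a kinase that makes sphingosine 1-phosphate, from 920.1 and 911 to 72.2 and 85. Cachd1, a calcium channel-like protein, fell from 979 and 1002 to 86.6 and 86 and Cibar1 from 1091 and 1119 to 111 and 104. Rnf128, a ubiquitin ligase, fell from 769 and 798 to 97.4 and 54.4, and Tspan8, a tetraspanin, from 1572 and 1465 to 195 and 135 (−3.12, and −1.49 on the probe set that was brightest over all arrays). Slc38a5, an amino acid transporter, fell from 862 and 949 to 107 and 82, the collagen gene Col5a1 from 902 and 1026 to 105 and 106, and Asb17 from 411 and 459 to 34.7 and 37.1. In each of these genes the highest Zfx-cko array lay below the lowest Zfx-flox array, which the rule that chose them required.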

How the data were processed

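The values are linear signal intensities that the authors deposited, 1 per probe set and array. They were made with GCOS 1.4, per the submitters' processing notes, and each array's trimmed mean is 250. The sources used here do not give the summarisation settings.

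The log2(intensity + 14.21) values of all 8 arrays were fitted with limma 3.58.1 in R 4.3.3 as 4 group means, so that the ESC arrays share in the estimate of the spread. The contrast was Zfx-cko minus Zfx-flox in HSC, with eBayes, a variance trend and Benjamini-Hochberg adjustment over genes. All adjusted p-values here are limma's. The fit was tested on simulated data. The 64 control probe sets and probe sets below the 40th percentile of mean HSC signal were left out. Names came from GEO's platform annotation: 34945 probe sets had 1 symbol, 932 several and 9160 none, and the latter kinds were not named. Of those with 1 symbol, 34754 matched RefSeq. Each gene stands on its probe set with the highest mean over the HSC arrays. The number of arrays limits the precision: the median standard error was 0.147 on the log2 scale.

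The comparison and the 46 gene groups were chosen with earlier results of these data known, and group counts are descriptions without a test. Genes named are the targeted gene and its paralog, the 15 largest rises and falls of all genes, and in each group up to 6 called members with the largest change and up to 3 uncalled members with the highest signal, from which those described were taken. Exceptions are stated where they occur. Of the motifs, AGGCCT was taken from the known Zfx motif. AGATAA, GAANNTTC and the CArG box were chosen after the changes of their groups had been seen, and the wider GATA search after the AGATAA counts. Windows came from RefSeq (GRCm38.p6). Alternatives covered the offset, scaling, filter, choice of probe set, variance trend, the HSC arrays alone, a replicate block and each array left out.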

Additional observations from a re-analysis of the deposited data

Results flagged for a closer look

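The HSC change was compared with the change in embryonic stem cells (ESC, Zfx-null minus Zfx-flox, 2 arrays each) for the 5 largest rises and the 5 largest falls in HSC, using limma's test of the difference between both changes, adjusted over all genes tested in HSC. These 10 genes were picked for the size of their HSC change, so a smaller ESC change was favoured by the choice. All 10 differences passed the threshold, which the choice also favoured. Where the ESC signals lay near or below the offset, the difference largely repeats the HSC change. Dusp5 and Entpd1 were bright enough to test only through the Zfx-cko arrays.

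Among the rises, Rnase4 rose by 3.03 in HSC and 1.45 in ESC on the log2 scale, a difference of 1.58 (SE 0.14, adjusted p = 6.63e-05). Fos rose by 2.94 and 0.83, a difference of 2.1 (adjusted p = 2.35e-05). Dusp5, which rose by 2.70 in HSC and went from 201 and 255 to 666 and 666 in ESC, showed a difference of 1.2 (adjusted p = 0.00266). These 3 genes were thus higher in the arrays labelled Zfx-cko and in those labelled Zfx-null, and by more in HSC. For Trat1 (difference 3.22, adjusted p = 0.000162) and Entpd1 (2.78, adjusted p = 0.00311) all 4 ESC signals lay below the offset, so that the ESC change has no measured size.

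Among the falls, Hspa1b fell by 3.63 in HSC and changed by 0.10 in ESC, with ESC signals of 285 and 346 in Zfx-flox against 372 and 308 in Zfx-null, a difference of −3.73 (SE 0.17, adjusted p = 3.79e-06). Ermap, at 58.7 and 35.9 against 72.5 and 64.1 in ESC, differed by −3.95 (adjusted p = 8.75e-06). Tlcd4 (−3.72, adjusted p = 0.000521), Rhag (−3.59, adjusted p = 0.000428) and Cldn13 (−3.35, adjusted p = 0.00195) were near or below the offset in ESC, with no ESC signal above 31.9.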

How the results depend on the processing

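Over 20 alternatives the number of genes called ranged from 4099 to 6068, against 5346. It was 4099 to 4192 with any one HSC array left out, 5044 without an offset, 4937 with median centring, 4493 with the mean of all probe sets of a gene and 5995 with the HSC arrays fitted alone. The labels do not say that replicate numbers mark a shared source, and the correlation of deviations between the replicates numbered 1 was 0.077 in HSC and 0.307 in ESC, so the numbers were not taken as pairs. With a replicate block 6068 genes were called, among them 5324 of the 5346. Of the called genes 54.3% were higher, 48.3% with quantile normalization of each cell type, 48.6% with that of all 8 arrays, and 44.7% with median centring, so the balance of rises and falls is not settled by these data. Shared calls changed sign in 13 genes when the brightest probe set was chosen over all arrays and in 14 with the mean of probe sets, and in none under the other alternatives.

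Of 169 called genes described above and followed through the alternatives, 161 kept their call under every alternative that tested them and none reversed. The other 8 lost it in at least 1: Cdkn1b, Grb10, Kdm6a, Kit, Nfe2, Nkg7, Slc25a37 and Zfx. Most of the 169 were chosen for large changes, which favoured stable calls. Calls over all genes were less stable: 4627 of 5346 were kept with median centring, and 3889 of the 5214 that were tested with the mean of probe sets. With the mean of probe sets, 40 of the 169 changed by more than 1.5 times in log2 change, so the size of these changes depends on the probe set. The cause was not tested. With 2 arrays a group, signals near the offset have no reliable fold.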
